A study of Rattus norvegicus with 27 samples.

Results

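The genes described here are 10 readouts and regulators of the transcription factor CREB in cultured rat Schwann cells. They were picked by gene name from the table of cell mRNA: *Crem*, *Creb1*, *Nr4a1*, *Nr4a2*, *Nr4a3*, *Sik1*, *Per1*, *Rgs2*, *Crtc1* and *Crtc2*. All 10 were found among the 17315 genes of the table, and all 10 passed the filter on low counts that left 10372 genes to test. Schwann cells are the glia that wrap axons of peripheral nerves, and primary rat cells bought from a supplier were used at low passage. Undifferentiated cells were kept without dibutyryl cyclic AMP (dbcAMP), a cell-permeable form of the second messenger cyclic AMP, and the labels do not give their medium further. Differentiated cells were starved of serum overnight and then held for 72 h in 1 mM dbcAMP in a medium low in serum. Dedifferentiated cells had the same 72 h in dbcAMP and then 72 h without it in complete medium, with more serum and with neuregulin and forskolin by the labels' protocol. The protocol places cells in the same complete medium before the starvation as well. Forskolin switches on the enzymes that make cyclic AMP, so withdrawal removed the analogue and added a drug of the same pathway. The effects of dbcAMP, serum, neuregulin and forskolin cannot be told apart.

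Cyclic AMP frees the catalytic subunits of protein kinase A, which phosphorylate CREB on genes that carry the cyclic AMP response element (CRE). Phosphorylated CREB recruits histone acetylases, and the CRTC coactivators enter the nucleus to join it once salt-inducible kinases (SIK) stop holding them in the cytoplasm. Several targets are themselves brakes on the pathway. *Sik1* encodes such a kinase, *Crem* can give rise from an internal promoter to the short repressor ICER, and *Rgs2* encodes a protein that shortens G protein signals. In Schwann cells cyclic AMP is known for driving cells toward the myelinating state in culture.

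Each stage had 3 libraries, called biological replicates in the labels. Whether they came from separate animals or cultures is not said, so p-values measure the spread between these libraries. Their totals ran from 10058735 to 16212278 estimated counts, and 11282 to 11833 genes were detected in each. Replicates 1 and 2 of every stage belong to one sequencing project and replicate 3 to another, and the latter gives no test of its own, with 1 library a stage. In bulk RNA, fewer cells of a type and less RNA per cell cannot be told apart. A level is given as CPM, the count divided by the library's total and multiplied by 1000000, and is not corrected for gene length, so levels are compared between libraries and not between genes. In each library 3 counts correspond to 0.185 to 0.298 CPM. Of the Schwann cell markers, *Sox10*, a transcription factor of the lineage, ranged from 964 to 1540 CPM and *Erbb3*, the neuregulin receptor, from 782 to 1300 CPM over the 9 libraries. The macrophage markers summed to 0.403 to 5.17 CPM, with *Aif1* and *Adgre1* at 0 counts throughout, and the endothelial markers to 1.21 to 8.26 CPM, with *Cdh5* at 0. The tested genes of these lists, *Cd68*, *Csf1r* and *Tek*, were higher under dbcAMP. Their log2 changes were 2.13, 6.2 and 2.37 (edgeR BH-adjusted p = 0.00387, 0.00231 and 0.000851). *Csf1r* was at 0 in undifferentiated libraries and reached at most 0.987 CPM in differentiated ones. Of the fibroblast markers *Lum* was at 0 and *Pdgfra* and *Dcn* were below 1 CPM in every library, while the collagen gene *Col1a1* averaged 17200, 6700 and 10800 CPM in undifferentiated, differentiated and dedifferentiated cells, lower under dbcAMP by a log2 change of -1.42 (edgeR BH-adjusted p = 4.53e-05). *Thy1* and *Fbln1* of the same list reached 1.92 and 5.12 CPM and were not called. The smooth muscle and pericyte markers summed to 34.3 to 82.8 CPM, with *Tagln* the largest part. Of these, *Acta2* was lower under dbcAMP by a log2 change of -4.04 (edgeR BH-adjusted p = 0.000645). It measured 2.49 to 3.94 CPM in undifferentiated and 0.442, 0.154 and 0 CPM in differentiated libraries, near the floor. On withdrawal *Acta2* rose by 5.21 on the log2 scale (edgeR BH-adjusted p = 0.000148). *Myh11* and *Tagln* were not called in any comparison. The part of these marker changes in the results was not tested. *Nefl* made up nearly all of the neuronal marker sum, which was 937 to 1300 CPM in differentiated and 71.1 to 255 CPM in the other libraries, and *Rbfox3*, *Syt1* and *Snap25* stayed below 1 CPM.

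Promoter windows from RefSeq (build GRCr8) show which genes carry the CRE next to an annotated transcript start. Windows of 300 bases, of which 250 lie before the start, were available for 9 of the 10 genes, with 3 starts for *Crem*, 2 for *Creb1* and 1 for each of the others. The full CRE, TGACGTCA, was found in 2 of the 3 *Crem* windows and in no window of the other genes, 2 of 12 windows in all, against 1.83% of the 33469 windows of the table and 3.45% of those of the genes tested here. The CRE core, TGACG or its complement CGTCA, was found in 9 of the 12 windows, belonging to 7 of the 9 genes, against 21.2% of all windows and 33.1% of those of the genes tested here. A full CRE holds a core on each strand and is counted in both. The element bound by Nr4a receptors, AAAGGTCA or TGACCTTT, matched in 1 window, at the second start of *Creb1*, against 1.43% of all windows and 0.922% of those of the tested genes. *Per1* and *Crtc1* had no match to these letters in their windows. The following 250 bases before the start are shown for *Crem*, which has the full element, for *Nr4a1*, which rose under dbcAMP, and for *Sik1* and *Rgs2*, which have cores but were not called, with matches to the CRE in capitals. Each is written in the direction of transcription.
Crem, the third start, chr17:58985240-58985489, plus strand: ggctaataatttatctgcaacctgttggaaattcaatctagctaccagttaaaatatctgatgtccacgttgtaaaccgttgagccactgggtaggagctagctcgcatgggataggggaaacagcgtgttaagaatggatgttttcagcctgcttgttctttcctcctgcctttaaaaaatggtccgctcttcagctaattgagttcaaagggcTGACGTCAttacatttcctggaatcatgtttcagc
Nr4a1, chr7:134259888-134260137, plus strand: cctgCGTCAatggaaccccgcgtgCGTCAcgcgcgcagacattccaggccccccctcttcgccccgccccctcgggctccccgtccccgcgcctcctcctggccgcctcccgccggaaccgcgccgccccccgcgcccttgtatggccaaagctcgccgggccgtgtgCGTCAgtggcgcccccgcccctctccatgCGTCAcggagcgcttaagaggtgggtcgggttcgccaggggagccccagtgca
Sik1, chr20:9958647-9958896, minus strand: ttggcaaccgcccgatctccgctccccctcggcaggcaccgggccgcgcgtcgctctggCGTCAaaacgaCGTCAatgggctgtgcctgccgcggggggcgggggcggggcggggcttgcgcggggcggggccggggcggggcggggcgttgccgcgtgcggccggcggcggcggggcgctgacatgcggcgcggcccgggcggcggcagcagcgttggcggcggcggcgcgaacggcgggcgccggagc
Rgs2, chr13:58352667-58352916, minus strand: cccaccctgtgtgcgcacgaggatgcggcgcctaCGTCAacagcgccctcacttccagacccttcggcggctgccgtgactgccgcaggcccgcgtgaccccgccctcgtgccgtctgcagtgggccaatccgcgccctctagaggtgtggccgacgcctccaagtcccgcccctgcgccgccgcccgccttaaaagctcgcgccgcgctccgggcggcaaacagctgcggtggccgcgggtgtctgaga
The third *Crem* start has its full element 35 bases before the start, and a second one begins at base 40 after it, beyond the stretch shown. *Nr4a1* has 4 cores, at 246, 226, 82 and 53 bases before the start, and no full one. The cores of *Sik1* lie 191 and 180 bases before the start, and that of *Rgs2* 216 bases before it. These matches describe letters in a window and are not evidence of binding.

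**Figure D1:**
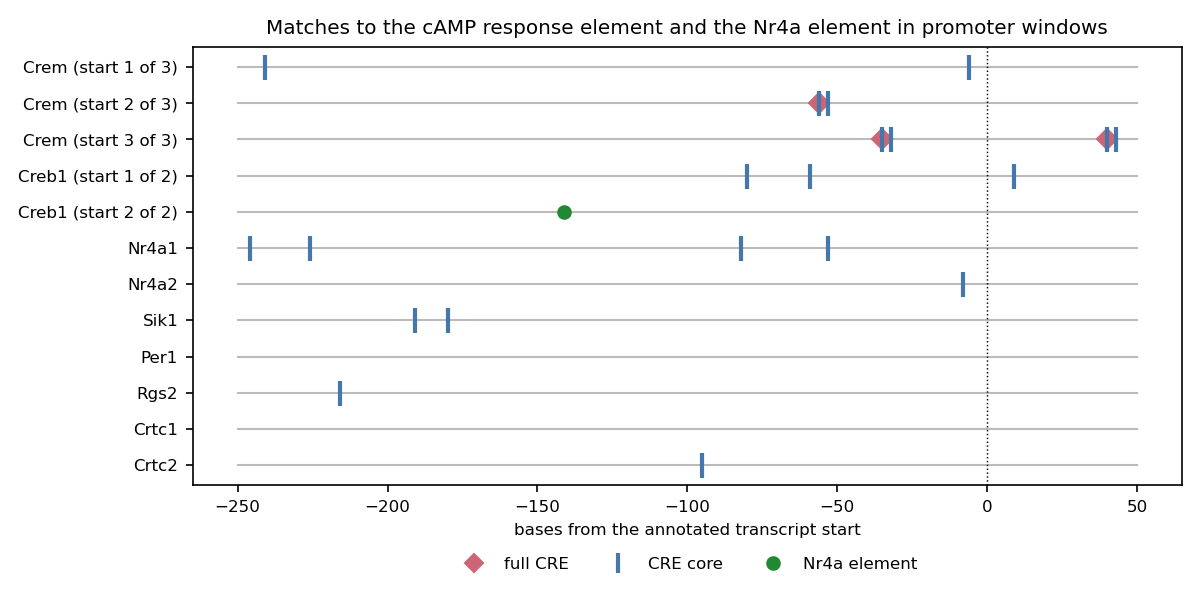
Positions of matches to the full CRE (diamonds), the CRE core (bars) and the Nr4a element (circle) in bases from the annotated transcript start, for the 12 windows of 9 genes. The full CRE is seen in 2 windows of *Crem*, and *Nr4a1* has 4 cores.

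The first comparison asked how the 10 genes responded to dbcAMP. *Nr4a1* and *Nr4a2* rose in differentiated cells, by 5.39-fold and 5.27-fold, and the other 8 genes did not pass the threshold, *Crem*, *Sik1* and *Per1* among them. A gene is called at an adjusted p under 0.05 in edgeR's quasi-likelihood test with Benjamini-Hochberg (BH) adjustment over all tested genes. Thus 2 of 10 genes were called, both higher, where 59.6% of all tested genes were called, 31.7% higher and 27.9% lower. By DESeq2 3 of the 10 were called, beside 6156 of the 10372 tested genes, and 4 of the 10 had an unadjusted p under 0.05 in edgeR. For 3 of the 10 genes the libraries of these stages were fully separate, namely for *Nr4a1*, *Nr4a2* and *Crtc1*, against 66.3% of all tested genes. The median log2 change of the 10 genes was -0.03, and that of all tested genes 0.05.

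The Nr4a receptors are nuclear receptors without a known classical ligand, and their genes belong to the early response to cyclic AMP and to growth factors. *Nr4a1* encodes Nur77. It measured 84.2, 134 and 76.9 CPM in the undifferentiated replicates 1, 2 and 3, then 421, 864 and 377 CPM in the differentiated ones, and 72.7, 116 and 114 CPM in the dedifferentiated ones. All 3 differentiated libraries lay above the other 6, and undifferentiated and dedifferentiated libraries overlapped. The means were 98.4 ± 31.1, 554 ± 269 and 101 ± 24.5 CPM (SD, n = 3). The rise was a log2 change of 2.43 (SE 0.334; edgeR BH-adjusted p = 0.000105), and on withdrawal *Nr4a1* fell by 2.44 on the log2 scale (SE 0.334; edgeR BH-adjusted p = 0.000186). Between dedifferentiated and undifferentiated cells the log2 change was -0.01, with a 95% interval from -0.72 to 0.70 (edgeR BH-adjusted p = 0.981), and its sign turned under several alternatives. Within the first sequencing project, which holds replicates 1 and 2, the 2 called changes were 2.48 and -2.75 (edgeR BH-adjusted p = 0.00214 and 0.00309).

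*Nr4a2* encodes Nurr1, best known from dopaminergic neurons. Its levels were 7.49, 9.90 and 10.2 CPM in undifferentiated, 38.4, 90.1 and 23.9 CPM in differentiated and 42.9, 30.6 and 32.3 CPM in dedifferentiated cells. Every library after exposure to dbcAMP, with or without withdrawal, lay above every undifferentiated one, and the ranges of the 2 later stages overlapped. The rise in differentiated cells was 2.40 on the log2 scale (SE 0.414; edgeR BH-adjusted p = 0.000528). Dedifferentiated cells were still 3.71-fold higher than undifferentiated cells (log2 change 1.89, SE 0.415; edgeR BH-adjusted p = 0.00627). The change on withdrawal did not pass the threshold (log2 change -0.50, 95% interval from -1.34 to 0.33; edgeR BH-adjusted p = 0.299). It was 0.19 (edgeR BH-adjusted p = 0.541) without differentiated replicate 2 and -0.85 (edgeR BH-adjusted p = 0.0451) without differentiated replicate 3. Within the first sequencing project, *Nr4a2* was higher by 2.81 in differentiated and by 2.03 in dedifferentiated cells (edgeR BH-adjusted p = 0.00154 and 0.0187).

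*Nr4a3* encodes NOR1. It measured 68.3, 55.1 and 43.7 CPM in undifferentiated, 18.9, 65.0 and 17.7 CPM in differentiated and 22.6, 26.9 and 29.5 CPM in dedifferentiated cells. In differentiated cells 2 libraries lay below all undifferentiated ones, and replicate 2 lay among them. With all libraries the log2 change was -0.79 (SE 0.417; edgeR BH-adjusted p = 0.123). Without differentiated replicate 2 it was -1.66 (edgeR BH-adjusted p = 0.000106), so leaving out this library changed the call. Dedifferentiated libraries all lay below undifferentiated ones, with a log2 change of -1.13 (SE 0.425; edgeR BH-adjusted p = 0.0684). This difference passed in the fit without a filter (edgeR BH-adjusted p = 0.0386) and in the fit on these 2 stages alone (0.00244).

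Ratios of counts within a library do not depend on sequencing depth or on scaling. The count of *Nr4a1* over that of *Nr4a3* was 1.23, 2.43 and 1.76 in undifferentiated, 22.2, 13.3 and 21.3 in differentiated and 3.22, 4.32 and 3.86 in dedifferentiated libraries. The 3 stages did not overlap. Differentiated replicate 2, which was high for all 3 receptors, had the lowest of its stage's ratios but stayed above the other stages. The count of *Nr4a2* over that of *Nr4a1* lay between 0.0633 and 0.133 in all 6 undifferentiated and differentiated libraries and was 0.590, 0.263 and 0.284 in dedifferentiated ones. Between dedifferentiated and undifferentiated cells this ratio differed by 1.89 on the log2 scale (two-sided exact permutation p = 0.1; adjusted 0.136 over 15 ratio comparisons). With 3 libraries a stage, 0.1 is the smallest p that this test can give.

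**Figure D2:**
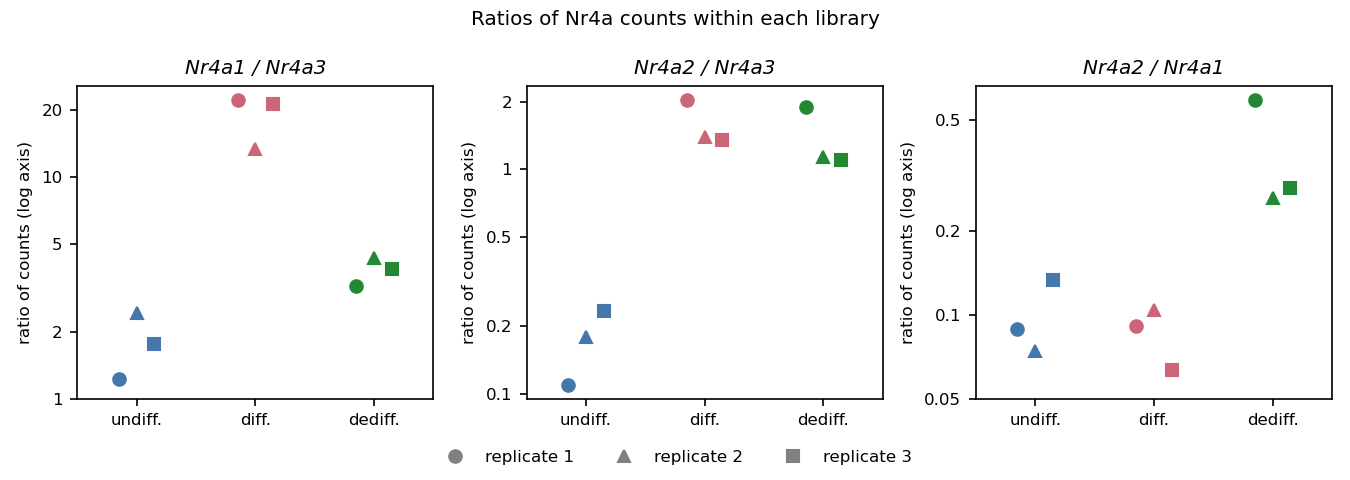
Ratios of estimated counts (log axis) of *Nr4a1* to *Nr4a3*, *Nr4a2* to *Nr4a3* and *Nr4a2* to *Nr4a1* in each library, by stage, with replicates 1, 2 and 3 as circles, triangles and squares. The first ratio is highest in differentiated cells (13.3 to 22.2), and the last is highest in dedifferentiated cells (0.263 to 0.590).

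No change in the mRNA of CREB itself was detected. *Creb1*, which encodes CREB, measured 13.5, 14.6 and 14.4 CPM in undifferentiated, 13.0, 12.4 and 14.6 CPM in differentiated and 14.5, 14.0 and 14.1 CPM in dedifferentiated cells. All 3 stages overlapped, and the 95% intervals of the log2 changes ran from -0.40 to 0.12 in differentiated against undifferentiated, from -0.16 to 0.36 in dedifferentiated against differentiated and from -0.30 to 0.22 in dedifferentiated against undifferentiated cells. These mRNA levels say nothing of the phosphorylation through which CREB is regulated.

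*Crem* encodes the relative CREM, whose products include activators and, from the internal promoter, the repressor ICER. The counts are per gene, so these products cannot be told apart, and 5 of its 9 values were fractional before rounding. Levels were 35.9, 43.1 and 41.6 CPM in undifferentiated and 34.9, 44.8 and 41.8 CPM in differentiated cells, which overlapped throughout. In dedifferentiated cells they were 30.0, 30.1 and 31.2 CPM, below the other 6 libraries. The log2 change under dbcAMP was -0.05, with a 95% interval from -0.28 to 0.18 (edgeR BH-adjusted p = 0.700). On withdrawal *Crem* fell by 0.40 on the log2 scale (SE 0.104; edgeR BH-adjusted p = 0.0100), and against undifferentiated cells it was lower by a log2 change of -0.45 (SE 0.105; edgeR BH-adjusted p = 0.00902). Within the first sequencing project the 2 changes were -0.39 and -0.45, and neither passed (edgeR BH-adjusted p = 0.122 and 0.123). The count of *Crem* over that of *Creb1* was 2.07 to 2.21 in dedifferentiated libraries and 2.66 to 3.61 in the others.

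The coactivator genes *Crtc1* and *Crtc2* were not called in any comparison with all libraries. *Crtc1* measured 30.5, 36.2 and 33.4 CPM in undifferentiated, 43.9, 45.7 and 43.2 CPM in differentiated and 46.6, 32.4 and 32.8 CPM in dedifferentiated cells. Differentiated libraries lay above undifferentiated ones without overlap, by a log2 change of 0.35 (SE 0.139), yet this missed the threshold (edgeR BH-adjusted p = 0.0521). The call depended on processing: it was made with library size alone (log2 change 0.41; edgeR BH-adjusted p = 0.0257), with at least 10 counts in every library (0.0459) and in the fit on these 2 stages (0.0207). On withdrawal its log2 change was -0.23 (edgeR BH-adjusted p = 0.194), and without dedifferentiated replicate 1 it was -0.42 (edgeR BH-adjusted p = 0.00725). *Crtc2* ranged from 49.1 to 65.2 CPM in differentiated cells and from 57.8 to 64.9 CPM in undifferentiated ones. In dedifferentiated cells it measured 67.9, 67.3 and 67.2 CPM, above all other libraries. The log2 change on withdrawal was 0.23 (95% interval from 0.00 to 0.45; edgeR BH-adjusted p = 0.0902), and it passed without differentiated replicate 2 (log2 change 0.31; edgeR BH-adjusted p = 0.0447). The count of *Crtc1* over that of *Crtc2* was 0.5 to 0.579 in undifferentiated, 0.701 to 0.895 in differentiated and 0.482 to 0.687 in dedifferentiated libraries, so differentiated libraries lay above the others (two-sided exact permutation p = 0.1 against either stage, adjusted 0.136).

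**Figure D3:**
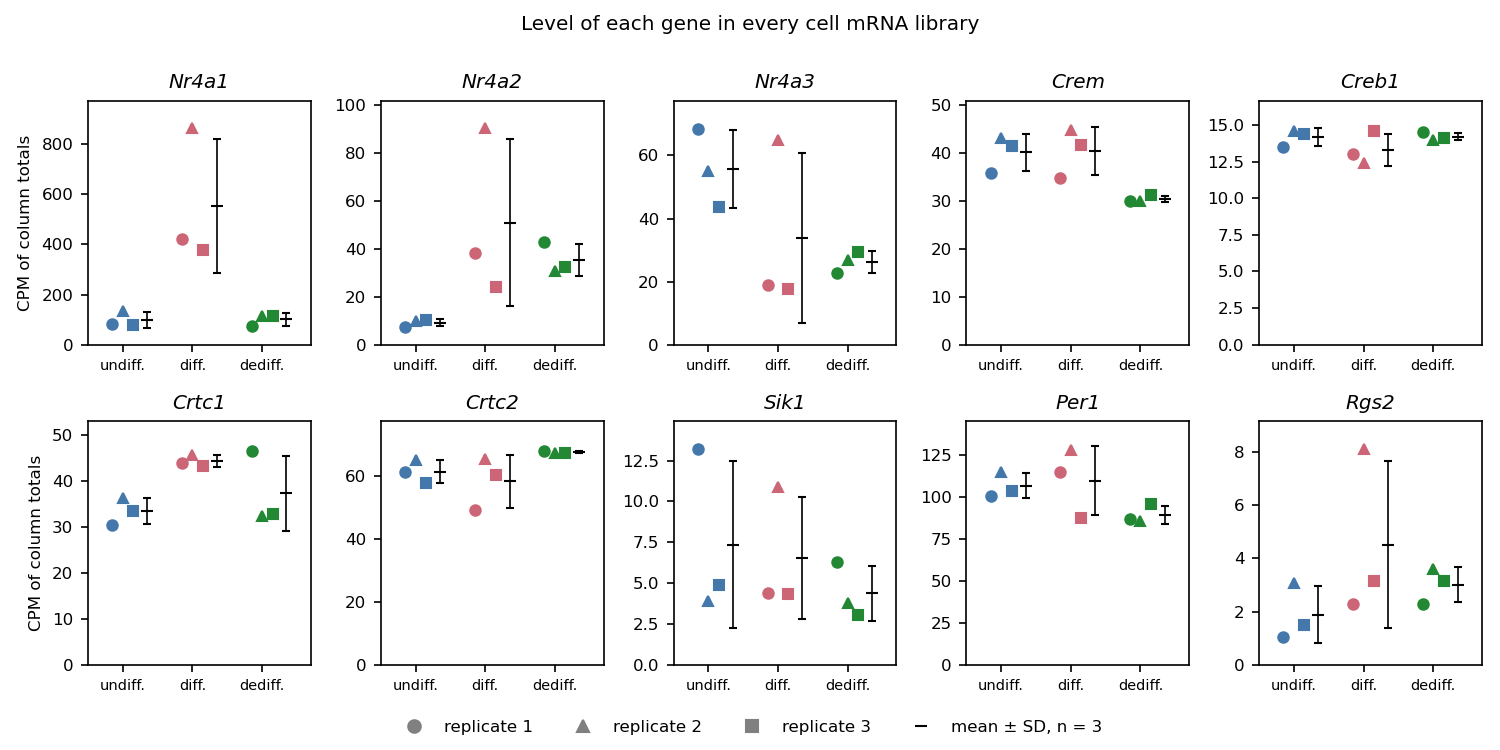
Level of each of the 10 genes in CPM of column totals in the 9 cell mRNA libraries, by stage, with replicates 1, 2 and 3 as circles, triangles and squares, and the mean ± SD (n = 3) in black. All 3 differentiated libraries are high for *Nr4a1* (377 to 864 CPM), and differentiated replicate 2 stands above its stage for the Nr4a genes, *Sik1* and *Rgs2*.

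The feedback genes *Sik1*, *Per1* and *Rgs2* gave no call in any comparison. *Sik1* measured 13.2, 3.94 and 4.91 CPM in undifferentiated, 4.42, 10.9 and 4.32 CPM in differentiated and 6.27, 3.78 and 3.08 CPM in dedifferentiated cells. A single library was high in each of the first 2 stages. Its log2 change under dbcAMP was -0.26, with a 95% interval from -1.38 to 0.87 (edgeR BH-adjusted p = 0.685). Without undifferentiated replicate 1 it was 0.50 (edgeR BH-adjusted p = 0.359), so the sign rests on that library. On withdrawal the log2 change was -0.55 (edgeR BH-adjusted p = 0.412).

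*Per1*, a repressor of the circadian clock that also responds quickly to cyclic AMP, measured 101, 115 and 104 CPM in undifferentiated, 115, 128 and 87.9 CPM in differentiated and 86.8, 85.9 and 95.8 CPM in dedifferentiated cells. Its log2 change under dbcAMP was -0.01, with a 95% interval from -0.29 to 0.27 (edgeR BH-adjusted p = 0.950). Dedifferentiated libraries lay below undifferentiated ones without overlap (log2 change -0.30; edgeR BH-adjusted p = 0.103), and the fit on these 2 stages called it (0.0283). On withdrawal the log2 change was -0.29 (edgeR BH-adjusted p = 0.0846). It passed without differentiated replicate 3 (log2 change -0.44; edgeR BH-adjusted p = 0.00583) and within the first sequencing project (-0.48; edgeR BH-adjusted p = 0.0269).

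*Rgs2* was the lowest in counts, with 13 to 105 counts a library. It measured 1.05, 3.08 and 1.5 CPM in undifferentiated, 2.28, 8.10 and 3.15 CPM in differentiated and 2.29, 3.58 and 3.16 CPM in dedifferentiated cells. Its log2 change under dbcAMP was 1.22 (SE 0.513; edgeR BH-adjusted p = 0.0611), and stages overlapped. It was called without undifferentiated replicate 2 (log2 change 1.70, edgeR BH-adjusted p = 0.0271), without differentiated replicate 1 (1.53, edgeR BH-adjusted p = 0.0251) and by DESeq2's Wald test (1.18, adjusted p = 0.0435). Without differentiated replicate 2, its highest library, the change was 0.51 (edgeR BH-adjusted p = 0.363). Within the first sequencing project it was 1.27 (edgeR BH-adjusted p = 0.189).

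The comparison of dedifferentiated with differentiated cells asked what followed withdrawal. *Nr4a1* fell by 5.44-fold and *Crem* by 1.32-fold, and the other 8 genes did not pass. These 2 of 10 calls, both lower, stand beside 46.4% of all tested genes called, 23.2% higher and 23.2% lower. DESeq2 also called 2, beside 4855 of the 10372 tested genes. Libraries did not overlap for 3 genes, *Nr4a1*, *Crem* and *Crtc2*, against 58.5% of all tested genes. The median log2 change was -0.37 for the 10 genes and -0.01 for all tested genes.

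Dedifferentiated and undifferentiated cells were compared to see which genes returned. *Nr4a2* stayed higher and *Crem* was lower, and 8 of the 10 genes did not pass, while 29.4% of all tested genes were called, 16.1% higher and 13.3% lower. DESeq2 also called 2, beside 3297 of the 10372 tested genes. Libraries did not overlap for 5 of the 10 genes, *Nr4a2* and *Crtc2* higher and *Nr4a3*, *Crem* and *Per1* lower, against 43.9% of all tested genes. The comparisons share libraries and are not independent of each other. Without differentiated replicate 3 the count on withdrawal was 4 genes in place of 2, beside 3962 of 10460 tested genes. In the first sequencing project alone, 1 gene, *Nr4a2*, was called between dedifferentiated and undifferentiated cells, beside 1283 of 10371 tested genes. In the fit on these 2 stages 4 were called, beside 2709 of 10063 tested genes.

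**Figure D4:**
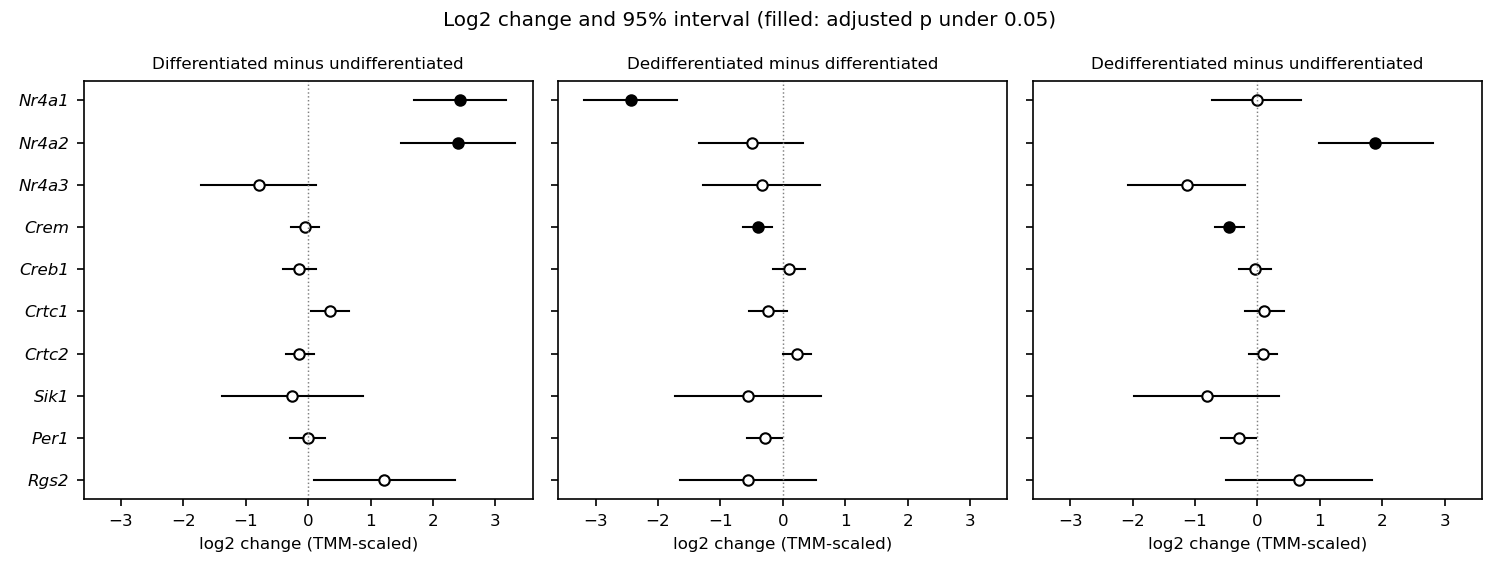
Log2 change of each gene with its 95% interval in the 3 comparisons, from the edgeR fit on all 9 libraries; filled points have an adjusted p under 0.05. *Nr4a1* rises by 2.43 and falls by 2.44, *Nr4a2* is higher in both comparisons with undifferentiated cells, and *Crem* is lower in both comparisons of dedifferentiated cells.

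The spread between differentiated libraries was wide for these genes. The median coefficient of variation was 33.7% over the 10 genes in differentiated cells, against 9.55% over all tested genes, and 12.8% and 16.1% in undifferentiated and dedifferentiated cells, against 10.9% and 10.5%. Differentiated replicate 2 was the highest of its stage for 9 of the 10 genes, all but *Creb1*, while it was the highest for 36.3% of all tested genes. Undifferentiated replicate 2 was the highest of its stage for 7 of the 10, against 30.4% of all tested genes. In differentiated replicate 2, 5 of the 10 genes exceeded 2 times the mean of the other differentiated libraries, namely *Nr4a1* (2.17 times), *Nr4a2* (2.89), *Nr4a3* (3.55), *Sik1* (2.49) and *Rgs2* (2.98), where 1.08% of all tested genes did. This library, and the early genes named for it next, were chosen after their values were seen.

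Immediate early genes, which answer serum and other acute stimuli within minutes, were in part also high in that library. In differentiated replicate 2, 7 of 12 such genes exceeded 2 times the mean of the other differentiated libraries, with *Egr1* at 10.3 times, *Btg2* at 9.70 and *Fosb* at 6.16. *Klf4* (1.82 times), *Junb* (1.7), *Zfp36* (1.13), *Ier3* (0.972) and *Dusp1* (0.653) did not. The 12 genes summed to 501 to 1200 CPM in differentiated cells, 1460 to 2200 CPM in undifferentiated and 1540 to 1830 CPM in dedifferentiated cells. *Atf3* alone made up 1030 to 1910 CPM in undifferentiated, 92 to 209 CPM in differentiated and 1290 to 1580 CPM in dedifferentiated libraries. The lower sum in differentiated cells thus came from *Atf3*, while more of the 12 genes were called higher than lower there. Their part in the values of the 10 genes was not tested. The rises of *Nr4a1* and *Nr4a2* were called also without this library, with log2 changes of 1.97 and 1.71 (edgeR BH-adjusted p = 0.000118 and 0.000216).

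**Figure D5:**
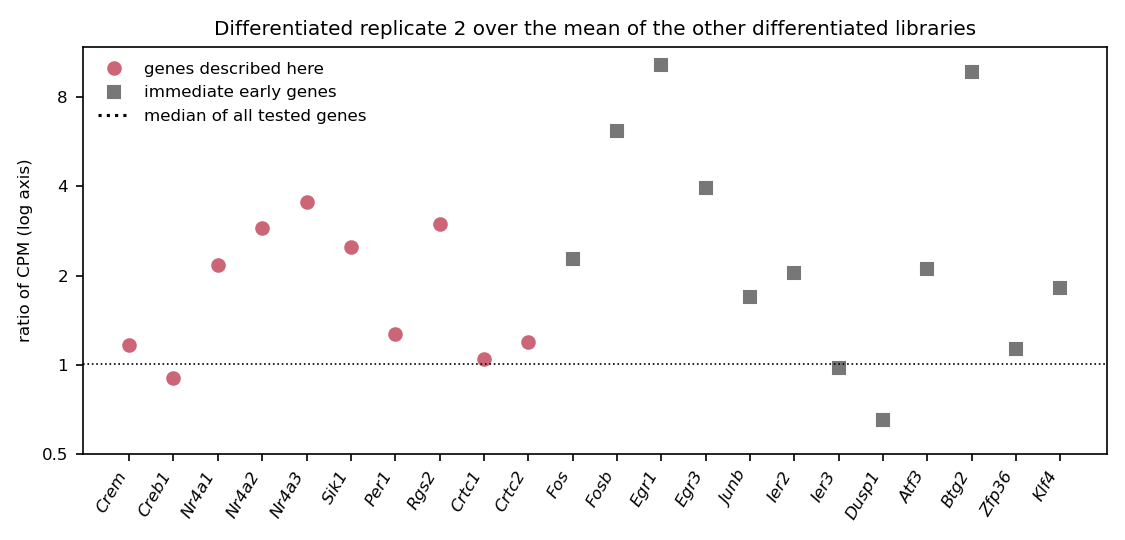
CPM in differentiated replicate 2 divided by the mean of differentiated replicates 1 and 3 (log axis) for the 10 genes (circles) and 12 immediate early genes (squares), with the median of all tested genes (1.01) as a dotted line. The Nr4a genes, *Sik1* and *Rgs2* lie between 2.17 and 3.55, and *Egr1*, *Btg2* and *Fosb* above them.

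As a group the 12 immediate early genes had 6 members higher and 3 lower in differentiated cells, with a median log2 change of 0.74, beside 31.7% higher, 27.9% lower and a median of 0.05 over all tested genes. *Egr3*, a zinc finger transcription factor, rose by 3.83 and *Fos*, an AP-1 subunit, by 1.59 on the log2 scale (edgeR BH-adjusted p = 0.00163 and 0.00269). The stress-responsive factor *Atf3* fell by 3.42 and the phosphatase gene *Dusp1* by 1.77 on the log2 scale. On withdrawal 2 were higher and 7 lower, with a median of -1.26, beside 23.2% higher and 23.2% lower over all tested genes, and *Egr3* fell by 6.04 on the log2 scale. Between dedifferentiated and undifferentiated cells 2 were lower and 10 were not called, beside 13.3% lower over all tested genes.

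Other textbook targets of cyclic AMP and CREB divided. Of 23 such genes, 14 were tested, and all 14 were called in differentiated against undifferentiated cells, 6 higher and 8 lower, with a median log2 change of -0.79, beside 59.6% called and a median of 0.05 over all tested genes. *Inhba* and *Areg*, named here for their low levels, were among the lower. They measured 1.05 to 1.63 and 1.37 to 4.9 CPM in undifferentiated and at most 0.185 and 0.54 CPM in differentiated libraries. Both passed the filter on low counts through the undifferentiated libraries, which favoured a call as lower than those. The phosphodiesterase genes *Pde4d* and *Pde10a*, whose products degrade cyclic nucleotides, rose, with log2 changes of 3.05 and 2.72 (in edgeR, BH-adjusted p = 1.12e-07 and 3.19e-08). *Pde4d* measured 7.98, 6.06 and 7.00 CPM before and 60.3, 63.1 and 59.8 CPM under dbcAMP, with no excess in replicate 2. *Bdnf*, a neurotrophin, and *Fosl2*, an AP-1 subunit, fell by 4.88 and 4.01 on the log2 scale (edgeR BH-adjusted p = 4.21e-08 and 4.22e-07). After withdrawal 4 were called higher and 6 lower than in differentiated cells, beside 46.4% of all tested genes called, with *Pde4d* back at 6.09 to 9.16 CPM. Against undifferentiated cells 5 of the 14 were lower and 9 were not called, beside 13.3% of all tested genes called lower, with *Bdnf* and the small GTPase gene *Gem* lower by log2 changes of -1.24 and -1.72.

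Among 6 further members of the CREB family and its coactivators, 1 was higher and 2 lower in differentiated cells, near the 59.6% called over all tested genes. *Creb3l1*, a factor anchored in the endoplasmic reticulum, fell by 4.42 on the log2 scale (edgeR BH-adjusted p = 2.89e-07), from 98.9 to 165 CPM in undifferentiated to 3.83 to 8.20 CPM in differentiated libraries, and reached 31.5 to 38.7 CPM after withdrawal. *Creb5* rose by 0.52 and *Creb3* fell by 0.62 on the log2 scale (edgeR BH-adjusted p = 0.0304 and 0.000394), and *Atf1*, *Creb3l2* and the acetylase gene *Crebbp* did not pass. On withdrawal 2 of these 6 were higher and 1 was lower, beside 46.4% of all tested genes called. *Sik3*, a kinase of the family of *Sik1*, fell by 1.35 on the log2 scale (SE 0.14; edgeR BH-adjusted p = 1.27e-05) and stayed lower after withdrawal, with 408 to 582, 191 to 228 and 267 to 341 CPM at the 3 stages in order. *Rxra*, a partner of Nr4a1 and Nr4a2 in dimers, fell by 0.70 on the log2 scale under dbcAMP (edgeR BH-adjusted p = 0.00647) and rose by 0.64 on withdrawal (edgeR BH-adjusted p = 0.0146), while *Rxrb* was not called. *Rxrg* had a log2 change of -0.86 under dbcAMP (edgeR BH-adjusted p = 0.0677) and rose by 1.31 on withdrawal (edgeR BH-adjusted p = 0.0151).

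In the clock list, 2 of 10 genes were higher and 3 lower in differentiated cells, near the 31.7% and 27.9% of all tested genes, and *Per2* and *Per3*, named here as paralogs of *Per1*, were not called there. *Cry1*, a clock repressor, fell by 0.79 on the log2 scale and *Dbp*, a clock output gene, rose by 0.46 (edgeR BH-adjusted p = 0.000245 and 0.0109). On withdrawal 4 were higher and 6 not called, beside 23.2% of all tested genes called higher, and *Dbp* ended 1.45 above undifferentiated cells on the log2 scale (edgeR BH-adjusted p = 2.06e-05). *Per3* was among the higher on withdrawal (log2 change 0.85; edgeR BH-adjusted p = 0.000751). It was also higher in dedifferentiated than in undifferentiated cells (0.58; edgeR BH-adjusted p = 0.011). *Per2* was not called in either comparison. Of the RGS family, 7 genes were tested beside *Rgs2*, and in differentiated cells the calls again stand beside 59.6% of all tested genes. There 2 were higher, among them *Rgs4* with a log2 change of 1.78, and 3 were lower, among them *Rgs16* with -6.39 (edgeR BH-adjusted p = 0.000130 and 0.000126). *Rgs16* measured 9.83 to 76.4 CPM in undifferentiated and 0.147, 1.23 and 0.0617 CPM in differentiated libraries. Differentiated replicates 1 and 3 lay below the level of 3 counts, so the size of this change is uncertain. *Rgs8*, also among the lower, measured 2.01 to 2.62 CPM in undifferentiated cells and had no count in any differentiated library. In dedifferentiated cells it measured 0.593 to 0.994 CPM. It passed the filter on low counts through the undifferentiated libraries, which favoured its call as lower.

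Genes with the most similar course over the 9 libraries were sought by Pearson correlation of log2 CPM, as a description that rests on stage as much as on the libraries within it. The closest to *Nr4a1* were *Eif3l* (r = 0.985), *Cd83* (0.976) and *Tra2b* (0.975), among 430 genes above 0.9. *Cd83* averaged 0.0589, 3.83 and 0.0582 CPM at the 3 stages in order, the first and last below the level of 3 counts, while *Eif3l* and *Tra2b* changed by less than 1 on the log2 scale. The closest to *Crem* were *Pde3b* (0.965), a phosphodiesterase gene, *Chac1* (0.955) and *Cmip* (0.954), and to *Per1* *Pcdh9* (0.933), *LOC691931* (0.908) and *Ddx46* (0.886).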

How the data were processed

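Cell mRNA was measured by strand-specific RNA sequencing in 9 libraries, 3 for each stage. The authors deposited estimated counts per gene in a table named for Salmon, not normalized, and 1.2% of the values were fractional. The submitters' processing notes also name STAR, HISAT2, Trim Galore, cutadapt and DESeq2 1.26.0 without their roles, and the genome build and annotation are not given in the sources used here. Extracellular vesicle libraries were not used. Column suffixes that went against sample titles were read by title.

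Counts were rounded and filtered with filterByExpr (minimum count 10), scaled by TMM, and fitted with edgeR 4.0.16 (quasi-likelihood, all 9 libraries, no covariate) in R 4.3.3, with Benjamini-Hochberg adjustment over 10372 genes. Alternatives were other scalings and filters, DESeq2 1.42.0, a replicate block, the sequencing project, the stages compared alone, and each library left out. Code was tested on simulated data. The 10 genes and the pathway lists were chosen with earlier results of these data known. From each list the genes named are up to 2 that rose and 2 that fell with the smallest p in a comparison, or any gene in lists of 8 or fewer, and by likeness the 3 genes with the highest correlation of log2 CPM (prior count 2). Genes outside this rule are said to be so in the text. Depth limits the precision of low genes such as *Rgs2*.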

Additional observations from a re-analysis of the deposited data

How the results depend on the processing

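Over the 10 genes and 3 comparisons, 249 of the values under other settings and 162 of those with a library left out kept their direction and their side of the threshold. Of the remaining values under other settings, 8 turned in sign, 11 gained a call and 2 lost one. Of those with a library left out, 11 turned in sign, 7 gained a call and 0 lost one. Calls were lost for *Crem* alone, in the first sequencing project by itself, where fewer libraries were fitted. Signs turned for values that were not called with all libraries. With library size alone, the log2 changes under dbcAMP were 0.01 for *Crem* and 0.05 for *Per1*, and those of dedifferentiated against undifferentiated cells were 0.01 for *Creb1* and 0.04 for *Nr4a1*. That of *Per1* under dbcAMP was 0 with at least 10 counts in every library and 0.10 in the first project, and that of *Nr4a1* between dedifferentiated and undifferentiated cells was 0.03 with the project as a term. With libraries left out, the change under dbcAMP ranged from -0.12 to 0.04 for *Crem*, from -0.82 to 0.50 for *Sik1* and from -0.12 to 0.14 for *Per1*. On withdrawal it ranged from -0.85 to 0.19 for *Nr4a2*, from -0.66 to 0.53 for *Nr4a3*, from -0.90 to 0.01 for *Sik1* and from -0.87 to 0.15 for *Rgs2*. Against undifferentiated cells it ranged from -0.18 to 0.25 for *Nr4a1* and from -0.11 to 0.21 for *Crtc1*. Genes called on withdrawal numbered 2606 in the first project and those between dedifferentiated and undifferentiated cells 1283, against 4809 and 3045, and of the 10 genes 1 was called in the latter comparison. The fit on the stages compared called 4 there, beside 2709 of 10063 tested genes, and the count on withdrawal ranged from 2 to 4 with a library left out. With the replicate block, 4 of the 10 genes were called under dbcAMP, beside 6325 of 10372 tested genes. *Nr4a3* and *Rgs2* were the additional ones (log2 changes -0.96 and 1.15, edgeR adjusted p = 0.0471 and 0.00979). *Nr4a3* was also called between dedifferentiated and undifferentiated cells (-1.12, edgeR adjusted p = 0.0454), where 3256 of the tested genes were called. *Nr4a1* had a log2 change of 0.02 in that comparison. Same-numbered libraries deviated together with a mean correlation of 0.175 (0.028 to 0.304), and 8 of 9 libraries correlated best with their own number, a hint from the data that the design does not give. With library size alone, 58.5% of calls under dbcAMP were higher, against 53.2%. The cause of these changes was not tested.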
